A study of Homo sapiens with 15 samples.

Results

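EGF against control is the comparison of ligand-treated with control cells of NCI-H1975, an established line of human non-small cell lung cancer that carries a mutated EGFR. The account covers every gene listed at 1 FPKM or more in at least 3 of the 6 libraries of the EGF and control groups, which were 13485 of the 61248 loci in the deposited table. FPKM is the number of fragments scaled to gene length and to library size, so that it allows levels of different genes to be compared. Each group held 3 libraries, and the series holds 15 libraries in all. The control group is named in the labels only as control, and the EGF group only by its treatment. All 6 libraries share the same line, and neither group carries an siRNA. A second pair of groups, treated with a control siRNA (siNC) or an siRNA against EGFR (siEGFR), shares no library with them and is used at the end. The labels give no dose, time, medium or serum condition, and do not say whether libraries came from separate cultures. What the p-values measure is thus library-to-library spread, perhaps only technical.

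EGF is a small secreted protein that binds the extracellular part of the EGF receptor, a receptor tyrosine kinase. Binding pairs receptors and switches on their kinase, which feeds the RAS-ERK cascade and the PI3K-AKT pathway. ERK output includes AP-1 and ETS transcription factors, further EGFR ligands and phosphatases that damp the cascade, whereas AKT holds FOXO transcription factors out of the nucleus. In lung adenocarcinoma the same receptor is often mutated and active without ligand.

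Most epithelial markers were present, and most markers of other cell types were low. Of 12 lung epithelial and carcinoma markers, 11 passed the filter, and their summed level was 998 to 1188 FPKM in control and 1016 to 1163 FPKM with EGF. The keratins KRT19, KRT8 and KRT18 made up most of that sum, NAPSA was below 1 FPKM in every library, 4 of the 11 fell, among them NKX2-1, CDH1 and MUC1, and MET rose. Of 12 leukocyte markers 6 were below 0.1 FPKM in every library, among them PTPRC, CD3E, LYZ and TYROBP, as were 4 of 8 endothelial markers. The leukocyte sum was 33.4 to 43.8 FPKM in control and 38.9 to 42.0 FPKM with EGF, most of it from CD14, at 30.1 to 39.9 FPKM over the 6 libraries, and the part of these markers in the results was not tested. The fibroblast markers DCN, LUM, FAP and PDGFRA were also below 0.1 FPKM throughout, whereas COL1A2 and PDGFRB, which this line expresses, fell with EGF. The summed fibroblast markers were 337 to 353 FPKM in control and 193 to 215 FPKM with EGF, and the summed endothelial markers 3.25 to 3.89 and 1.90 to 2.27 FPKM. The receptor transcript EGFR (ENSG00000146648) was at 28.0, 22.3 and 22.8 FPKM in control 1, 2 and 3 and at 30.2, 22.1 and 23.9 FPKM in EGF 1, 2 and 3, and the groups overlapped (log2 change 0.05 ± 0.14, not called). Read totals recovered from the FPKM steps were 18009903 to 21100647 in control and 23663624 to 31379222 with EGF. The libraries also varied within groups: the mitochondrial tRNA gene MT-TN was at 1087, 116 and 226 FPKM in control 1, 2 and 3 and at 471, 115 and 519 FPKM in EGF 1, 2 and 3. In bulk RNA, fewer cells of a kind and less RNA per cell cannot be told apart.

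In what follows, a log2 change is the difference in mean log2(FPKM + 1) ± SE (EGF minus control, n = 3 libraries per group), levels in FPKM are given in replicate order, and rose and fell are used of genes with a Benjamini-Hochberg adjusted p under 0.05 in limma. The added 1 understates the change of genes near 1 FPKM. By this rule 2516 genes rose (18.7% of those tested) and 3051 fell (22.6%), 41.3% in either direction. At least 2-fold changes were far fewer, 361 higher (2.68%) and 332 lower (2.46%). The groups did not overlap for 52.5% of genes, and the rule that named genes from lists and rankings took only such genes. Without EGF 3, the library with the most reads, 1622 genes rose and 1999 fell. The 6 genes that mark the comparison were all called. ANGPTL4, a secreted inhibitor of lipoprotein lipase, was at 2.62, 3.38 and 2.96 FPKM in control and 23.8, 27.0 and 24.6 FPKM with EGF (log2 change 2.72 ± 0.09, adjusted p = 2.82e-05). Among the largest decreases MLXIPL, the glucose-responsive transcription factor ChREBP, was at 11.1, 11.3 and 13.1 FPKM in control and 1.27, 1.39 and 1.15 FPKM with EGF (log2 change -2.50 ± 0.09, adjusted p = 2.82e-05).

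**Figure D1:**
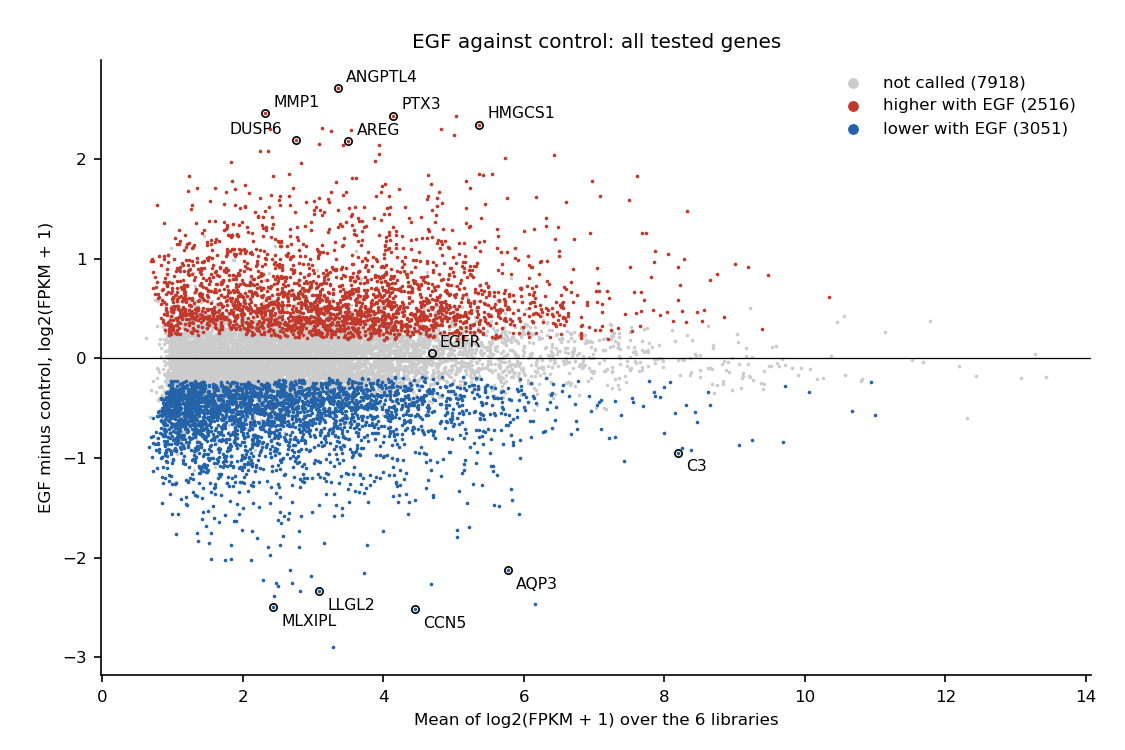
Each point is 1 of the 13485 tested genes, with the mean of log2(FPKM + 1) over the 6 libraries on the horizontal axis and EGF minus control on the vertical axis, coloured by the limma call. The 2516 higher and 3051 lower genes lie on both sides at every level, and EGFR itself sits close to 0.

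Several secreted factors were among the largest increases of all. The list held 52 ligands of receptor tyrosine kinases and other secreted factors, among them ANGPTL4 and FGFBP1. Of these 28 passed the filter, 12 rose and 8 fell (median log2 change 0.08, against -0.03 over all tested genes). The largest increase after ANGPTL4 was that of FGFBP1, which frees fibroblast growth factors from the matrix and stood at 2.60, 2.84 and 3.29 FPKM in control and 17.5, 19.7 and 18.0 FPKM with EGF (log2 change 2.31 ± 0.09). AREG, a ligand of EGFR itself, was at 4.47, 3.72 and 4.77 FPKM in control and 23.2, 22.0 and 24.0 FPKM with EGF (log2 change 2.18 ± 0.09). VEGFA, the vascular growth factor, rose from 9.81, 8.67 and 9.21 to 29.5, 25.1 and 26.3 FPKM (log2 change 1.45 ± 0.08). Other ligands of the EGFR family rose by less: the log2 change was 0.95 ± 0.09 for NRG1, 0.93 ± 0.07 for HBEGF and 0.90 ± 0.15 for EREG. TGFA was called at 0.31 ± 0.09, but not without EGF 1, EGF 3, control 2 or control 3, where its adjusted p in limma ran from 0.0746 to 0.111, and BTC was not called (-0.16 ± 0.19), except as lower once GC and length trends were removed (log2 change -0.35). The ephrin EFNB2 rose (log2 change 1.42 ± 0.13) while EFNB3 fell from 4.54, 4.92 and 4.63 to 1.61, 1.30 and 1.36 FPKM (log2 change -1.24 ± 0.08). MDK (midkine, a heparin-binding growth factor) and GAS6, the ligand of AXL, fell as well, by 0.70 and 0.49 on the log2 scale. Without EGF 3 or without control 3, 5 of the 8 decreases in the list were called.

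Cytokines rose and fell in similar numbers. Of 43 listed, 23 passed the filter, 8 rose (34.8%) and 7 fell (30.4%), against 18.7% and 22.6% of all tested genes. Among the gp130 cytokines, which signal through JAK and STAT3, IL11 rose from 1.08, 0.727 and 0.995 to 4.99, 6.03 and 5.95 FPKM (log2 change 1.78 ± 0.11) and LIF from 16.6, 17.4 and 17.2 to 38.6, 43.8 and 38.5 FPKM (log2 change 1.19 ± 0.07). IL6 rose too, but to 2.38 FPKM only (log2 change 0.94 ± 0.08), and CTF1 (cardiotrophin 1), of the same family, fell by 0.71. The neutrophil chemokine CXCL8 was at 2.24, 1.03 and 1.12 FPKM in control and 6.40, 5.08 and 6.31 FPKM with EGF (log2 change 1.52 ± 0.19). Control 1 was the highest control library, and the rule that named the gene required that the groups not overlap. The death ligand TNFSF10 (TRAIL) fell from 25.9, 17.4 and 22.8 to 8.17, 6.62 and 7.38 FPKM (log2 change -1.44 ± 0.15), the largest decrease in the list. Of the 7 decreases, 4 were called without EGF 3 and 4 without control 3.

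Among ligands and antagonists of the TGF-beta family decreases outnumbered increases. Of 31 listed, 19 passed the filter, 3 rose (5 once GC and length trends were removed) and 11 fell (median log2 change -0.28). INHBB, the beta B subunit of activins and inhibins, fell from 8.59, 10.7 and 8.82 to 2.15, 2.65 and 2.09 FPKM (log2 change -1.65 ± 0.11), and TGFB3 and the decoy receptor BAMBI fell by 0.57 and 0.78. The BMP antagonist NOG went the other way, from 5.90, 7.40 and 7.11 to 19.98, 18.9 and 18.9 FPKM (log2 change 1.38 ± 0.09). The number of decreases was 6 without EGF 1, EGF 3, control 2 or control 3, and 6 after median-ratio scaling. In the WNT list, 4 of 28 members passed the filter and 2 rose, WNT7B (log2 change 1.00 ± 0.08) and the antagonist DKK1 (0.40 ± 0.07).

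Axon guidance ligands and hormones held single large responses. SEMA7A, a membrane-anchored semaphorin, rose from 1.32, 1.62 and 1.58 to 8.73, 10.6 and 9.46 FPKM (log2 change 2.08 ± 0.10), whereas 9 of 16 tested guidance ligands fell and 3 rose. The secreted semaphorins SEMA3F (log2 change -1.35 ± 0.14) and SEMA3C (-1.26 ± 0.22) were among the decreases. SEMA3C stood at 78.0, 47.2 and 54.99 FPKM in control and 30.0, 18.95 and 24.1 FPKM with EGF, with control 1 and EGF 1 the highest of their groups. Among 14 tested peptide hormones and related factors 5 rose and 3 fell. Stanniocalcin 1 (STC1), a secreted glycoprotein hormone, was the most abundant of the raised ligands named here, at 27.4, 23.9 and 24.98 FPKM in control and 112, 101 and 103 FPKM with EGF (log2 change 2.01 ± 0.08). APLN, the ligand of the apelin receptor, and the vasodilator ADM rose by 1.36 ± 0.10 and 0.81 ± 0.09 on the log2 scale, and METRN and the secretory chaperone SCG5 fell by 0.80 and 0.83.

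The secreted proteins that surround the cell fell as a rule, with PTX3 as the clearest exception. Of 27 tested matricellular proteins and proteoglycans 19 fell and 6 rose (median log2 change -0.33). PTX3, a soluble pattern recognition protein, was at 5.79, 6.45 and 7.49 FPKM in control and 41.1, 37.7 and 40.9 FPKM with EGF (log2 change 2.44 ± 0.10), and the proteoglycans SRGN and SDC1 rose by 1.10 ± 0.10 and 0.92 ± 0.07. CCN5, a growth-restraining member of the CCN family, fell from 43.2, 61.8 and 50.3 to 8.96, 7.37 and 8.14 FPKM (log2 change -2.52 ± 0.14, adjusted p = 7.30e-05). Its relative CCN2 rose instead (log2 change 0.51 ± 0.10), and CCN1 was not called (-0.02 ± 0.08). The basement membrane proteoglycan HSPG2 (perlecan) fell from 36.3, 46.3 and 41.2 to 16.7, 15.8 and 12.9 FPKM (log2 change -1.39 ± 0.13), the adhesive glycoprotein THBS1 by 1.17, FBLN1 by 1.24 and MATN2 by 1.19.

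Complement and airway secretory genes also fell. Of 20 tested complement and coagulation genes 12 fell and 2 rose. The most abundant of the decreases was C3, the central complement component, at 381, 425 and 409 FPKM in control and 221, 213 and 196 FPKM with EGF (log2 change -0.95 ± 0.08). The chaperone CLU fell from 86.4, 94.1 and 95.1 to 33.2, 33.4 and 34.7 FPKM (log2 change -1.42 ± 0.07). C4A and C4B fell by 0.77 and 1.31, but they are near-identical copies whose reads cannot be split with certainty. Tissue factor (F3), the membrane receptor that starts coagulation, rose (log2 change 1.10 ± 0.12). Of 8 tested mucins and airway secretory proteins 6 fell, among them MUC16 (log2 change -1.63 ± 0.15), the siderophore-binding protein LCN2 (-1.46 ± 0.10) and MUC1 (-0.71 ± 0.09), and the trefoil factor TFF1 rose (0.91 ± 0.15). The intracellular retinoid carrier CRABP2 fell from 54.6, 63.4 and 63.4 to 16.7, 16.6 and 16.8 FPKM (log2 change -1.79 ± 0.08), and the IGF-binding proteins diverged, with IGFBP3 (log2 change 1.44 ± 0.24) and IGFBP4 (0.91 ± 0.11) higher and IGFBP5 (-1.34 ± 0.09) lower.

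**Figure D2:**
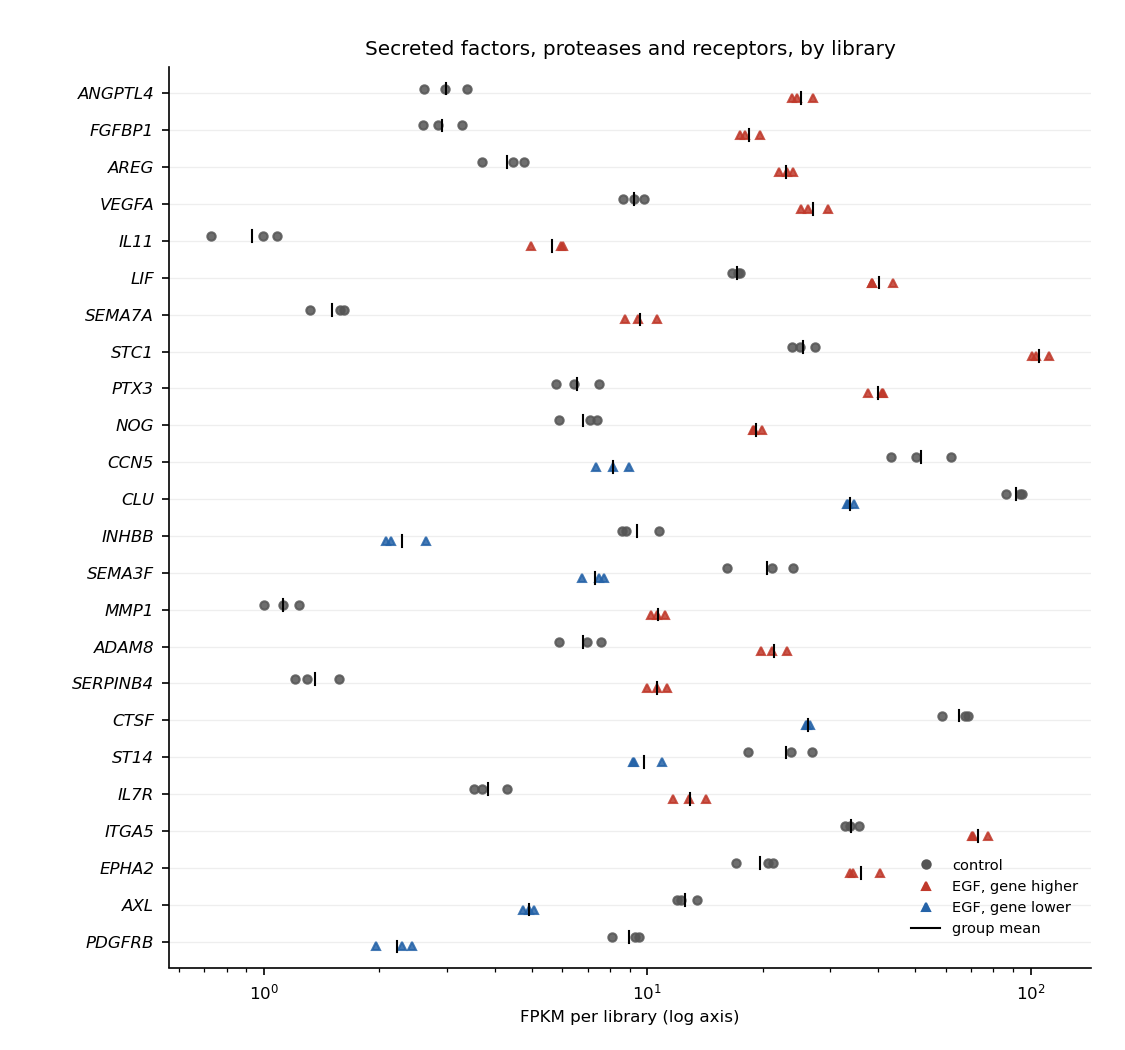
Levels in FPKM per library (log axis) are shown for 24 secreted factors, proteases, inhibitors and receptors, with circles for control, triangles for EGF and a bar for each group mean. The groups do not overlap for any of these genes, which were chosen after their values were seen.

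Among proteases the collagenase MMP1 changed most. It stood at 1.13, 0.999 and 1.24 FPKM in control and 10.6, 10.2 and 11.1 FPKM with EGF (log2 change 2.46 ± 0.08), but at a lower level than MMP14, the membrane-anchored activator of gelatinase A, which rose from 73.1, 74.5 and 77.1 to 140.5, 143 and 139 FPKM (log2 change 0.90 ± 0.06). Of 10 tested matrix metalloproteases these 2 rose and 5 fell, including the membrane types MMP15 (log2 change -0.95 ± 0.09) and MMP24 (-0.99 ± 0.10). In the ADAM and ADAMTS families 2 of 14 rose and 5 fell. The sheddase ADAM8 rose from 5.89, 7.57 and 6.96 to 21.1, 23.2 and 19.8 FPKM (log2 change 1.52 ± 0.10) and the aggrecanase-like ADAMTS9 by 0.97 ± 0.10, while ADAMTS15 fell by 1.04. Of 26 tested serine proteases and plasminogen activation genes 8 rose (30.8%) and 9 fell (34.6%), with a median log2 change of -0.02. Of all tested genes 18.7% rose and 22.6% fell, with a median of -0.03. PLAT, the tissue plasminogen activator, and PLAUR, the urokinase receptor, rose by 0.62 ± 0.08 and 0.76 ± 0.10 on the log2 scale, and the trypsin PRSS3, which is close in sequence to other trypsins, from 0.698, 1.22 and 1.29 to 5.34, 6.67 and 5.14 FPKM (log2 change 1.71 ± 0.15). Matriptase (ST14), an epithelial membrane protease, fell from 18.3, 26.8 and 23.7 to 9.18, 10.9 and 9.24 FPKM (log2 change -1.14 ± 0.15), and KLK5 fell by 0.99.

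Lysosomal proteases and inhibitors moved in both directions. Of 12 tested cathepsins 3 rose and 6 fell. CTSC, which activates granule serine proteases, rose from 8.82, 8.35 and 8.32 to 18.5, 19.2 and 19.2 FPKM (log2 change 1.07 ± 0.06), and CTSF fell from 58.7, 68.6 and 67.4 to 25.9, 26.6 and 26.1 FPKM (log2 change -1.27 ± 0.08). CTSH and CTSA fell by 1.13 and 0.79. Of 16 tested serpins, a family of protease inhibitors, 10 rose and 4 fell (median log2 change 0.49). SERPINB2, which inhibits plasminogen activators, rose from 5.24, 5.10 and 4.56 to 13.9, 12.997 and 14.1 FPKM (log2 change 1.30 ± 0.08). SERPINB4 and SERPINB3, the squamous cell carcinoma antigens, rose by 2.30 ± 0.09 and 1.97 ± 0.16, but are near-identical neighbours whose reads may be shared. SERPINB1, an inhibitor of neutrophil proteases, fell (log2 change -0.94 ± 0.10), as did SERPINA5 (-1.11 ± 0.11). Other protease inhibitors fell more often than they rose, 8 against 3 of 18 tested, with 5 increases once GC and length trends were removed. SPINK4 fell from 12.9, 15.5 and 15.9 to 1.44, 2.27 and 2.79 FPKM (log2 change -2.33 ± 0.17), PAPLN by 1.58 and SPINT1, an inhibitor of matriptase, by 0.95. Among the increases were TFPI2 and TIMP4 (log2 change 0.94 ± 0.16 and 0.87 ± 0.11).

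Receptor tyrosine kinases fell in the main. Of 52 listed, 25 passed the filter, 16 fell and 5 rose (median log2 change -0.38), and 10 fell without EGF 3. The increases numbered 3 without EGF 1, EGF 3 or control 3. PDGFRB, a receptor of platelet-derived growth factor, was at 8.10, 9.49 and 9.32 FPKM in control and 2.29, 2.43 and 1.97 FPKM with EGF (log2 change -1.63 ± 0.09). AXL, the GAS6 receptor, fell from 11.9, 13.5 and 12.3 to 4.91, 5.07 and 4.74 FPKM (log2 change -1.20 ± 0.07), so that receptor and ligand were both lower. FGFR3 fell by 1.30, the collagen receptor DDR1 by 0.75, the insulin receptor INSR by 0.64, IGF1R by 0.57 and ERBB2 by 0.56. Against this, the ephrin receptor EPHA2 rose from 17.0, 21.3 and 20.7 to 34.4, 40.4 and 33.8 FPKM (log2 change 0.85 ± 0.11) and MET, the receptor of hepatocyte growth factor, from 28.1, 21.4 and 21.6 to 41.0, 33.5 and 37.0 FPKM (0.63 ± 0.13). All EGF libraries were above all control libraries for both, which the rule that named them required.

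Other receptors were balanced between increases and decreases. Of 50 tested receptors for cytokines, TNF and TGF-beta ligands 14 rose (28%) and 13 fell (26%). The shares over all tested genes were 18.7% and 22.6%. The interleukin 7 receptor IL7R rose from 4.30, 3.70 and 3.54 to 14.3, 11.7 and 12.8 FPKM (log2 change 1.52 ± 0.10), and TNFRSF12A, the receptor of the cytokine TWEAK, from 34.7, 44.8 and 41.2 to 89.0, 111 and 95.9 FPKM (1.28 ± 0.12). The type I TGF-beta receptor TGFBR1 rose by 0.81 ± 0.16, while the co-receptor TGFBR3 fell by 0.78, IL6R by 0.86 and IFNGR1, a chain of the interferon gamma receptor, by 0.72. Of 13 tested integrins, ITGA2, ITGA5, ITGA6 and ITGA3 rose (30.8%) and ITGB4 fell (7.69%, and 2 decreases without control 2). ITGA5, a chain of the fibronectin receptor, was at 33.7, 32.8 and 35.6 FPKM in control and 77.5, 70.2 and 70.7 FPKM with EGF (log2 change 1.07 ± 0.07). ITGA2, a chain of a collagen receptor, was at 15.4, 9.80 and 10.5 and 40.1, 26.2 and 33.0 FPKM (log2 change 1.41 ± 0.20), with the first library of each group the highest. ITGB4, the hemidesmosome integrin, fell from 55.1, 70.9 and 63.6 to 33.5, 33.7 and 28.98 FPKM (log2 change -0.95 ± 0.11), although its partner ITGA6 rose (1.22 ± 0.16).

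Of 15 tested endocytic and scavenger receptors 5 rose (33.3%, and 3 genes without EGF 3) and 4 fell (26.7%). Of all tested genes 18.7% rose and 22.6% fell. The transferrin receptor TFRC was higher (log2 change 0.99 ± 0.13) and LRP1 (-1.02 ± 0.13) and SORT1 (-1.06 ± 0.10) lower. Plexins and other guidance receptors fell in 10 of 15 cases and rose in 4, and without EGF 3 or control 3 these were 5 and 2. PLXNA1 rose from 16.1, 22.5 and 19.2 to 46.8, 53.7 and 44.4 FPKM (log2 change 1.29 ± 0.13), whereas PLXNA2 (-1.24 ± 0.10) and PLXNB1 (-0.85 ± 0.11) fell. Of 231 listed G protein-coupled receptors 56 passed the filter, 14 rose (25%) and 18 fell (32.1%). Without control 3 these were 9 and 11 genes, with 9 increases also without EGF 3. The chemokine scavenger ACKR3 fell from 2.95, 4.52 and 3.73 to 0.610, 0.449 and 0.539 FPKM (log2 change -1.62 ± 0.13) and the lactate receptor HCAR1 from 10.9, 9.52 and 10.2 to 4.01, 3.46 and 3.75 FPKM (-1.24 ± 0.08). Increases in that list were smaller, the largest being the adhesion receptor ADGRE2 (log2 change 0.89 ± 0.09).

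Solute carriers changed at rates near those of all tested genes (18.7% higher, 22.6% lower). Of 380 listed 191 passed the filter, 41 rose (21.5%) and 50 fell (26.2%), and 27 rose without EGF 3. SLC20A1, a sodium-phosphate cotransporter, was at 22.4, 17.4 and 19.9 FPKM in control and 68.9, 63.5 and 69.3 FPKM with EGF (log2 change 1.71 ± 0.10). The lactate exporter SLC16A3 rose from 19.7, 24.6 and 23.2 to 41.3, 48.8 and 43.6 FPKM (log2 change 0.96 ± 0.11), the glucose transporters SLC2A3 and SLC2A1 by 0.85 ± 0.10 and 0.55 ± 0.09, and the amino acid exchanger SLC7A5 by 0.59 ± 0.10. The organic anion transporter SLCO4A1 rose by 1.51 ± 0.09. In the other direction SLC27A2, a fatty acid carrier with acyl-CoA synthetase activity, fell from 4.41, 3.97 and 4.40 to 0.758, 0.802 and 0.651 FPKM (log2 change -1.60 ± 0.08) and SLC27A1, of the same family, by 1.17, whereas SLC27A4 rose (1.01 ± 0.10). The mitochondrial carrier of basic amino acids SLC25A29 fell from 14.96, 15.8 and 17.2 to 4.91, 4.59 and 4.52 FPKM (log2 change -1.58 ± 0.08), and SLC4A11, of the bicarbonate transporter family, by 1.56.

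Of the channels and transporters listed, the aquaporin AQP3 had the largest log2 change. AQP3, which carries water and glycerol, fell from 106, 112 and 122 to 25.9, 24.5 and 25.004 FPKM (log2 change -2.13 ± 0.08, adjusted p = 2.82e-05), and AQP7, a further glycerol channel, from 3.55, 3.64 and 3.85 to 0.442, 0.338 and 0.388 FPKM (-1.75 ± 0.08). AQP11 fell too (log2 change -1.14 ± 0.09), while AQP1 rose from 1.92, 2.05 and 2.74 to 6.91, 7.18 and 6.51 FPKM (1.29 ± 0.11). Of 32 tested potassium, sodium and calcium channels 16 fell and 3 rose, or 8 once GC and length trends were removed. The epithelial sodium channel subunit SCNN1A fell by 0.90 and the acid-sensing channel ASIC1 by 1.07, from control means of 6.20 and 3.80 FPKM. The cation channel TRPV2 rose from 11.7, 15.01 and 12.7 to 35.7, 40.6 and 34.4 FPKM (log2 change 1.42 ± 0.11) and ORAI1, the pore of store-operated calcium entry, by 0.81 ± 0.17. Of 21 tested ABC transporters 4 rose and 8 fell, and the decreases were 5 without EGF 3 and 4 without control 3. The increases were 2 without EGF 1, EGF 3 or control 3. ABCC4, an exporter of organic anions, fell by 0.53.

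FOSL1, JUN and the ETS factors ETV4 and ETV5, known as outputs of ERK, were among the transcription factors that rose. Of 30 tested AP-1, ATF and CREB factors 9 rose and 2 fell, and these were 15 and 6 once GC and length trends were removed, with 4 decreases without control 2. FOSL1, the AP-1 subunit FRA1, was at 5.45, 7.27 and 6.89 FPKM in control and 27.7, 31.5 and 31.2 FPKM with EGF (log2 change 2.05 ± 0.11). JUN rose from 10.3, 10.4 and 10.4 to 26.1, 23.5 and 25.04 FPKM (log2 change 1.19 ± 0.07), JUNB by 0.70 ± 0.07 and the small MAF protein MAFF by 0.86 ± 0.08. The 2 decreases were the membrane-bound factors CREB3L3 and CREB3L4 (log2 change -1.05 ± 0.12 and -0.96 ± 0.07). In the ETS list 6 of 16 rose and 2 fell (1 decrease when any library but control 2 was left out, and 5 once GC and length trends were removed), with ETV4 (log2 change 1.03 ± 0.07) and ETV5 (0.75 ± 0.09) highest, and the epithelial factor ELF3 fell from 9.81, 10.4 and 10.2 to 3.88, 3.96 and 3.71 FPKM (-1.20 ± 0.07). Among 20 tested EGR and KLF factors 6 rose and 3 fell, with KLF6 (log2 change 0.73 ± 0.14) and KLF10 (0.63 ± 0.08) higher and SP6 lower (-1.35 ± 0.09). Factors of the cell cycle rose in 8 of 17 cases, led by MYBL2 (log2 change 1.84 ± 0.10) and E2F1 (1.71 ± 0.14).

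Basic helix-loop-helix factors changed at rates near those of all tested genes (18.7% higher, 22.6% lower). Of 41 tested 9 rose (22.0%), or 14 once GC and length trends were removed, and 10 fell (24.4%). BHLHE40, a repressor that also acts in the clock, was at 21.1, 19.8 and 20.3 FPKM in control and 62.5, 55.6 and 61.1 FPKM with EGF (log2 change 1.51 ± 0.07), while its paralogue BHLHE41 fell by 0.98. MYC rose from 40.5, 41.1 and 41.2 to 71.8, 78.3 and 74.0 FPKM (log2 change 0.85 ± 0.07). ID3, which blocks other members of the family, fell from 27.8, 32.6 and 33.1 to 11.3, 12.03 and 10.99 FPKM (log2 change -1.36 ± 0.09), ATOH8 by 1.56, and TFEB, the regulator of lysosome genes, from 5.04, 6.25 and 6.07 to 1.97, 1.81 and 1.84 FPKM (-1.24 ± 0.09). Of 13 tested genes that ChREBP and its relative MondoA control, 7 rose and 4 fell, MLXIPL itself included among the decreases. The lipogenic enzymes SCD and FASN rose, by 1.83 ± 0.07 and 1.33 ± 0.14 on the log2 scale, and ACACB and TXNIP fell by 0.73 and 0.43.

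Among nuclear receptors and developmental factors decreases outnumbered increases. Of 23 tested nuclear receptors 9 fell and 1 rose, and the increases were 0 without EGF 1 or EGF 3 and 4 once GC and length trends were removed. PPARA, RXRA and NR1H3, which act in lipid metabolism, fell by 0.81, 0.73 and 0.70 on the log2 scale. In the SOX and homeobox list 17 of 36 fell and 6 rose, and 9 fell without EGF 3. The increases were 3 without EGF 1 or EGF 3. POU2F3, the master factor of tuft cells, fell from 2.62, 2.10 and 2.52 to 0.188, 0.120 and 0.166 FPKM (log2 change -1.56 ± 0.09), and SOX4 from 19.6, 12.6 and 16.03 to 9.32, 6.35 and 8.03 FPKM (-0.93 ± 0.18). STAT2, which carries interferon signals, fell from 18.5, 14.8 and 17.1 to 7.17, 6.79 and 6.83 FPKM (log2 change -1.16 ± 0.09). WWTR1 (TAZ) and its partner TEAD4 rose by 0.82 ± 0.13 and 0.76 ± 0.11. Among forkhead factors the mitotic FOXM1 rose (log2 change 0.83 ± 0.07) and FOXO4 and FOXO6 fell by 0.88 and 1.48. ZNF genes, mostly repressors of the zinc finger class, gave 77 decreases and 11 increases among 385 tested, a share of decreases (20%) near that of all genes. Their decreases were 148 after removal of GC and length trends, and 49, 48, 35 and 36 without EGF 1, EGF 2, EGF 3 or control 3. Their increases were 27 after that removal, 18 after median-ratio scaling, 6, 5 and 6 without EGF 1, EGF 3 or control 3, and 23 without control 1.

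Feedback regulators of the receptor and of ERK rose in 19 of 46 tested cases and fell in 6, or in 3 without EGF 3. DUSP6, the phosphatase that switches ERK off, was at 2.25, 2.09 and 2.14 FPKM in control and 14.0, 12.9 and 13.5 FPKM with EGF (log2 change 2.19 ± 0.07). PHLDA2, an imprinted growth restrainer, rose from 38.2, 43.3 and 42.6 to 159.6, 187 and 175 FPKM (log2 change 2.05 ± 0.09), and SPRY4, an inhibitor of RAS activation, from 2.49, 2.26 and 2.15 to 9.34, 8.91 and 8.61 FPKM (1.59 ± 0.08). ERRFI1, which binds and inhibits the EGFR kinase, rose by 0.76 ± 0.14. Other restrainers fell: the receptor-degrading LRIG1 (log2 change -0.46 ± 0.07), the ubiquitin ligase CBLB (-0.80 ± 0.14) and the phosphatase DUSP2 (-0.75 ± 0.10).

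Genes of sterol synthesis, glycolysis and the cell cycle rose in large numbers. Of 33 tested cholesterol genes 22 rose and 3 fell, with HMGCS1, the enzyme that commits acetyl units to sterols, at 18.9, 17.1 and 15.9 FPKM in control and 93.4, 86.8 and 95.7 FPKM with EGF (log2 change 2.35 ± 0.08). ACAT2, the thiolase before it, rose from 11.3, 11.7 and 12.2 to 58.7, 63.1 and 64.5 FPKM (log2 change 2.31 ± 0.07), and MSMO1, SQLE and DHCR7, later steps of the pathway, by 2.24 ± 0.22, 1.98 ± 0.16 and 1.84 ± 0.11. The decreases were the sterol sensor NR1H3, the ubiquitin ligase MYLIP (log2 change -0.42 ± 0.09) and TM7SF2 (-0.57 ± 0.12). In glycolysis 20 of 27 rose, led by PGK1 (log2 change 1.59 ± 0.07) and PFKFB4 (1.49 ± 0.07), and the pyruvate dehydrogenase kinases PDK4 and PDK2 fell by 1.23 and 1.16. Of 32 tested G1/S genes 30 rose and of 28 mitosis genes 27, and none in either list was called lower. AURKB, the kinase of the chromosomal passenger complex, was at 10.7, 14.4 and 14.0 FPKM in control and 41.1, 50.6 and 46.5 FPKM with EGF (log2 change 1.75 ± 0.13), and cyclin A2 (CCNA2) at 5.90, 4.63 and 4.79 and 19.1, 16.1 and 18.9 FPKM (1.64 ± 0.11).

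Promoters of genes that moved at least 2-fold differed in letter content. RefSeq promoters (build GRCh38.p14) were matched by symbol for 252 of the 361 higher and 190 of the 332 lower genes, for 9378 tested genes and for 27305 genes in all, and the 250 bases before the start were searched on both strands. The NF-Y box CCAAT was present in 53.6% of the higher, 26.3% of the lower and 35.5% of the tested promoters (33.0% of all). The CHR element TTTGAA, known from mitotic genes, was in 23.0%, 8.95% and 8.21% (13.6% of all), the cAMP response element TGACGTCA in 5.95%, 1.05% and 3.08% (1.77%) and the AP-1 site TGANTCA in 7.54%, 3.68% and 3.97% (6.6%). A TGACGTCA match holds no TGANTCA match. Within lists, CCAAT was in 18 of 23 matched promoters of mitosis genes (78.3%) and in 17 of 27 of cholesterol genes (63.0%), and TTTGAA in 11 of the 23 (47.8%) and 1 of the 27 (3.70%). These shares describe letters in a window and not binding. The promoters of 4 genes that rose are shown because each holds at least 1 of these elements, and that of MLXIPL, which fell, for contrast. Promoters of MMP1, FOSL1 and STC1 were not used here. Each line gives the 150 bases before the start, 5′ to 3′ on the strand of the gene, with matches in capitals. AREG (chr4:74444986-74445135, plus strand) has TGACGTCA at 65 to 58 bases before the start, and IL11 (chr19:55370464-55370613, minus strand) has TGAGTCA at 96 to 90. HMGCS1 (chr5:43313413-43313562, minus strand) holds CCAAT on the opposite strand, read as ATTGG, at 100 to 96 bases before the start. CCNA2 (chr4:121823884-121824033, minus strand) holds TGACGTCA at 81 to 74 and ATTGG at 56 to 52. None of the elements is in the 150 bases of MLXIPL (chr7:73624523-73624672, minus strand).
AREG: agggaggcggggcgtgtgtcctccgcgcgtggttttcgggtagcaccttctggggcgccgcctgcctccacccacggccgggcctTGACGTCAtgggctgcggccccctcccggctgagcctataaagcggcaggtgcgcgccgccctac
IL11: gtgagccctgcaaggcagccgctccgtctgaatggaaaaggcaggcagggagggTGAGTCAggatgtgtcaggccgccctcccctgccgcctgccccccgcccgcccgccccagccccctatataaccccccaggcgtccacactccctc
HMGCS1: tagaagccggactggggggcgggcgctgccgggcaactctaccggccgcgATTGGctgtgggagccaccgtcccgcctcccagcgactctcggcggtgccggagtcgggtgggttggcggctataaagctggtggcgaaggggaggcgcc
CCNA2: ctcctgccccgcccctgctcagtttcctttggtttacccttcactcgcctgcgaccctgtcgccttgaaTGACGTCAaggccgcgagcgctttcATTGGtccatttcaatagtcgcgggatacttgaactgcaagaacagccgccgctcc
MLXIPL: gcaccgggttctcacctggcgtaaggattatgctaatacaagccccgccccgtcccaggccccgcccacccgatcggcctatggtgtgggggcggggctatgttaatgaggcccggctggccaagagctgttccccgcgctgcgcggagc

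The 25 largest decreases came from many cell functions. Besides CCN5 and MLXIPL they include the cell envelope protein PPL (periplakin), at 51.3, 57.1 and 56.5 FPKM in control and 11.3, 10.4 and 10.4 FPKM with EGF (log2 change -2.26 ± 0.07), and the tight junction scaffold TJP3, at 9.96, 11.3 and 12.3 and 1.43, 1.64 and 1.60 FPKM (-2.25 ± 0.09). LLGL2, which sets the basolateral domain of epithelial cells, fell from 15.04, 20.9 and 18.8 to 2.67, 3.07 and 2.63 FPKM (log2 change -2.33 ± 0.13). Lipid enzymes in this group were TMEM86A (log2 change -2.26 ± 0.07), which cleaves lysoplasmalogens, the lysophospholipase PNPLA7 (-2.03 ± 0.12) and the fatty acid hydroxylase CYP4F12 (-2.13 ± 0.07). BMF, a pro-apoptotic BH3-only protein, fell from 9.40, 9.27 and 9.27 to 1.75, 1.54 and 1.59 FPKM (log2 change -1.97 ± 0.07). The angiotensin-converting enzyme ACE, the hormone receptor GLP2R and the folate receptor FOLR1 fell by 1.89, 1.87 and 1.73. GPNMB, a membrane glycoprotein of lysosomes and melanosomes, fell from 15.1, 16.9 and 14.96 to 2.98, 2.38 and 2.62 FPKM (log2 change -2.19 ± 0.09). MT1E (log2 change -2.46 ± 0.13) and ANXA8 (-1.80 ± 0.08) are close in sequence to other family members, which makes their assignment of reads uncertain.

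**Figure D3:**
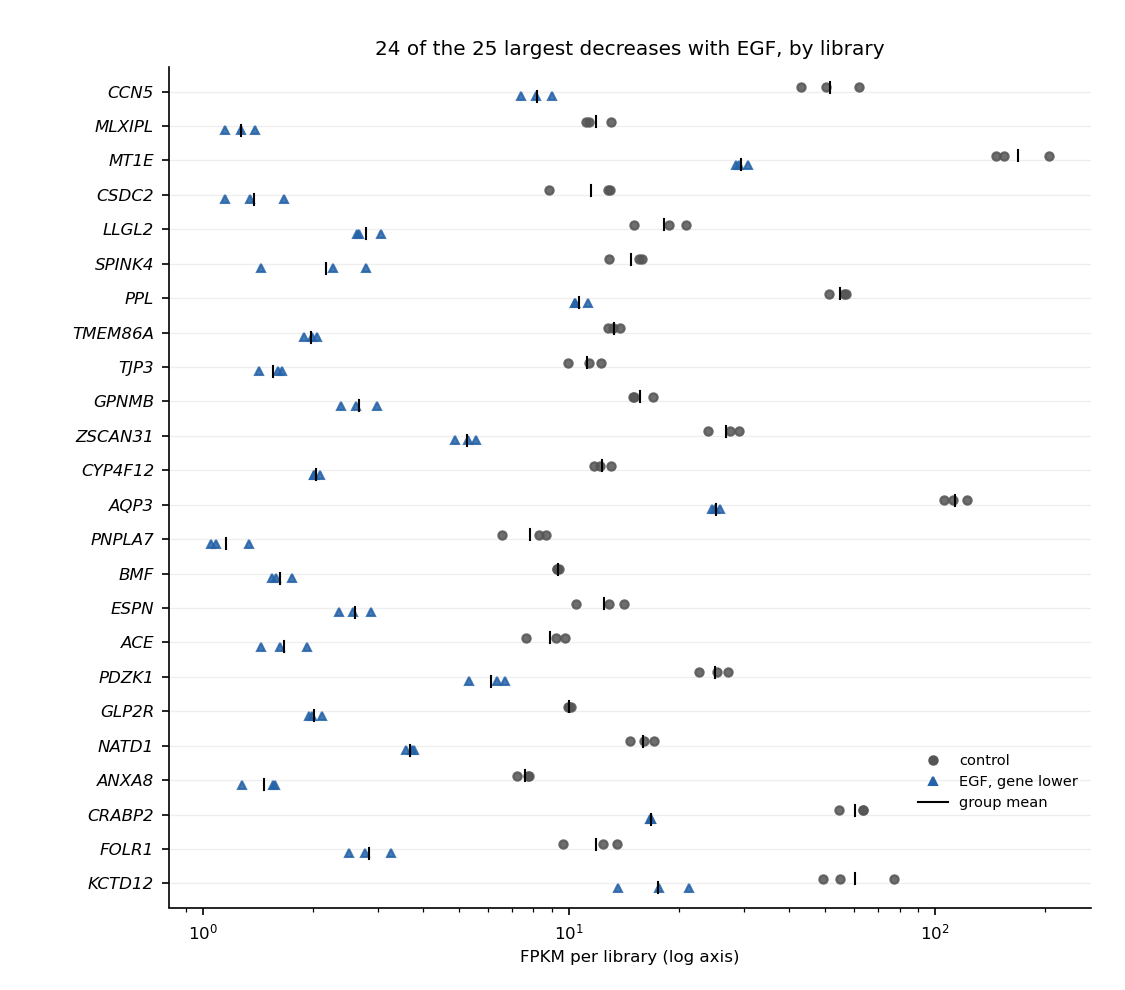
Levels in FPKM per library (log axis) of 24 of the 25 largest decreases, with circles for control, triangles for EGF and a bar for each group mean. Mean levels with EGF range from 1.16 FPKM for PNPLA7 to 29.5 FPKM for MT1E, and the groups are apart for each gene because the choice required it.

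Genes of epithelial polarity and junctions mostly fell. Of 38 tested polarity and tight junction genes 24 fell, and the 1 increase, DLG3, was lost when any EGF library or control 3 was left out, whereas 2 rose once GC and length trends were removed. CDH1 (E-cadherin) was at 6.36, 5.56 and 5.14 FPKM in control and 2.32, 1.98 and 2.10 FPKM with EGF (log2 change -1.09 ± 0.10), and CDH3 (P-cadherin) fell by 1.06. The junction protein CGN (cingulin) and the PAR complex member PARD6B fell by 1.25 and 0.96. CLDN1, CLDN2 and TJP1 were not called (-0.03 ± 0.11, 0.05 ± 0.10 and -0.15 ± 0.13), but CLDN1 and TJP1 were called lower once GC and length trends were removed (log2 change -0.19 and -0.13). Of 21 tested mesenchymal genes 2 rose, among them SNAI1 (log2 change 0.59 ± 0.09), and 8 fell. The decreases included the collagen chain COL1A2, at 323, 326 and 336 FPKM in control and 208, 189.9 and 187 FPKM with EGF (log2 change -0.75 ± 0.08). The decreases in that list were 5 without EGF 3 or control 3, 4 without EGF 1 and 5 after median-ratio scaling. Keratins gave 3 decreases among 11 tested, with KRT15 lower by 1.26. That share (27.3%) was near the 22.6% of all tested genes, and the median log2 change of the list was 0.07.

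Genes that FOXO factors induce, or that restrain PI3 kinase, fell in 19 of 26 tested cases and rose in 1. The ubiquitin ligase FBXO32 was at 13.3, 13.04 and 13.1 FPKM in control and 4.30, 4.05 and 3.97 FPKM with EGF (log2 change -1.47 ± 0.06), and PIK3IP1 and YPEL3 fell by 1.27 and 1.28. The exception, the mitophagy receptor BNIP3, rose from 6.77, 5.40 and 6.16 to 19.2, 16.7 and 19.3 FPKM (log2 change 1.45 ± 0.10). Lysosomal genes fell in 17 of 33 cases and rose in 5, or in 3 without EGF 3. Besides TFEB and the cathepsins, the sulfatase SGSH and the fucosidase FUCA1 fell by 0.88 and 0.87, whereas the galactosidase GLA (0.83 ± 0.06) and the cholesterol exporter NPC1 (0.54 ± 0.07) rose. In fatty acid oxidation and peroxisomes 17 of 41 fell and 1 rose, or 2 once GC and length trends were removed. CPT1A, the gate of mitochondrial fatty acid entry, fell from 15.9, 16.3 and 15.4 to 6.70, 6.43 and 6.51 FPKM (log2 change -1.16 ± 0.06), and the peroxisome division genes PEX11G and PEX11A by 1.21 and 0.85. The increase was ACOX2, a peroxisomal oxidase of bile acid intermediates (log2 change 1.33 ± 0.15).

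Antigen presentation genes fell as well, with log2 changes of less than 1 in size for those named here. Of 22 tested 16 fell and TAP2, a peptide transporter subunit, rose (log2 change 0.74 ± 0.10). HLA-E was at 194, 212 and 214 FPKM in control and 116, 123.3 and 117 FPKM with EGF (log2 change -0.79 ± 0.07), and HLA-F, a related class I molecule, fell by 0.83. The class I activator NLRC5 fell from 14.9, 15.8 and 16.3 to 7.44, 7.91 and 7.18 FPKM (log2 change -0.97 ± 0.07), and the class II invariant chain CD74 by 0.77. Metallothioneins, which bind zinc and copper, fell in 4 of 7 tested cases, MT2A from 440.1, 472 and 456 to 218, 263 and 242 FPKM (log2 change -0.92 ± 0.09), with the same caution on similar copies. In the cilium list of intraflagellar transport and BBSome genes 12 of 41 fell (29.3%) and 2 rose (4.88%). Of all tested genes 22.6% fell and 18.7% rose. Without EGF 3 the counts in the cilium list were 7 and 0. The increases were 1 without EGF 1, EGF 2 or control 3 and 5 without control 1, and the decreases 19 once GC and length trends were removed.

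The share of decreases also differed with base composition. When the tested genes were cut into 5 equal groups by transcript GC content, in the group with the lowest GC 6.89% fell, and the share was 15.6%, 23.9%, 31.1% and 33.7% in the higher groups of equal size, in order of GC content. The share of increases was 17.2%, 21.6%, 21.4%, 20.4% and 14.1%. Median GC was 57.0% for genes at least 2-fold lower, 49.1% for genes at least 2-fold higher and 50.4% for all tested. With GC and length trends removed from each library 3569 genes rose and 3782 fell, and no gene named by the rule for the text changed its direction. Whether GC content has a part in single decreases was not tested beyond this.

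**Figure D4:**
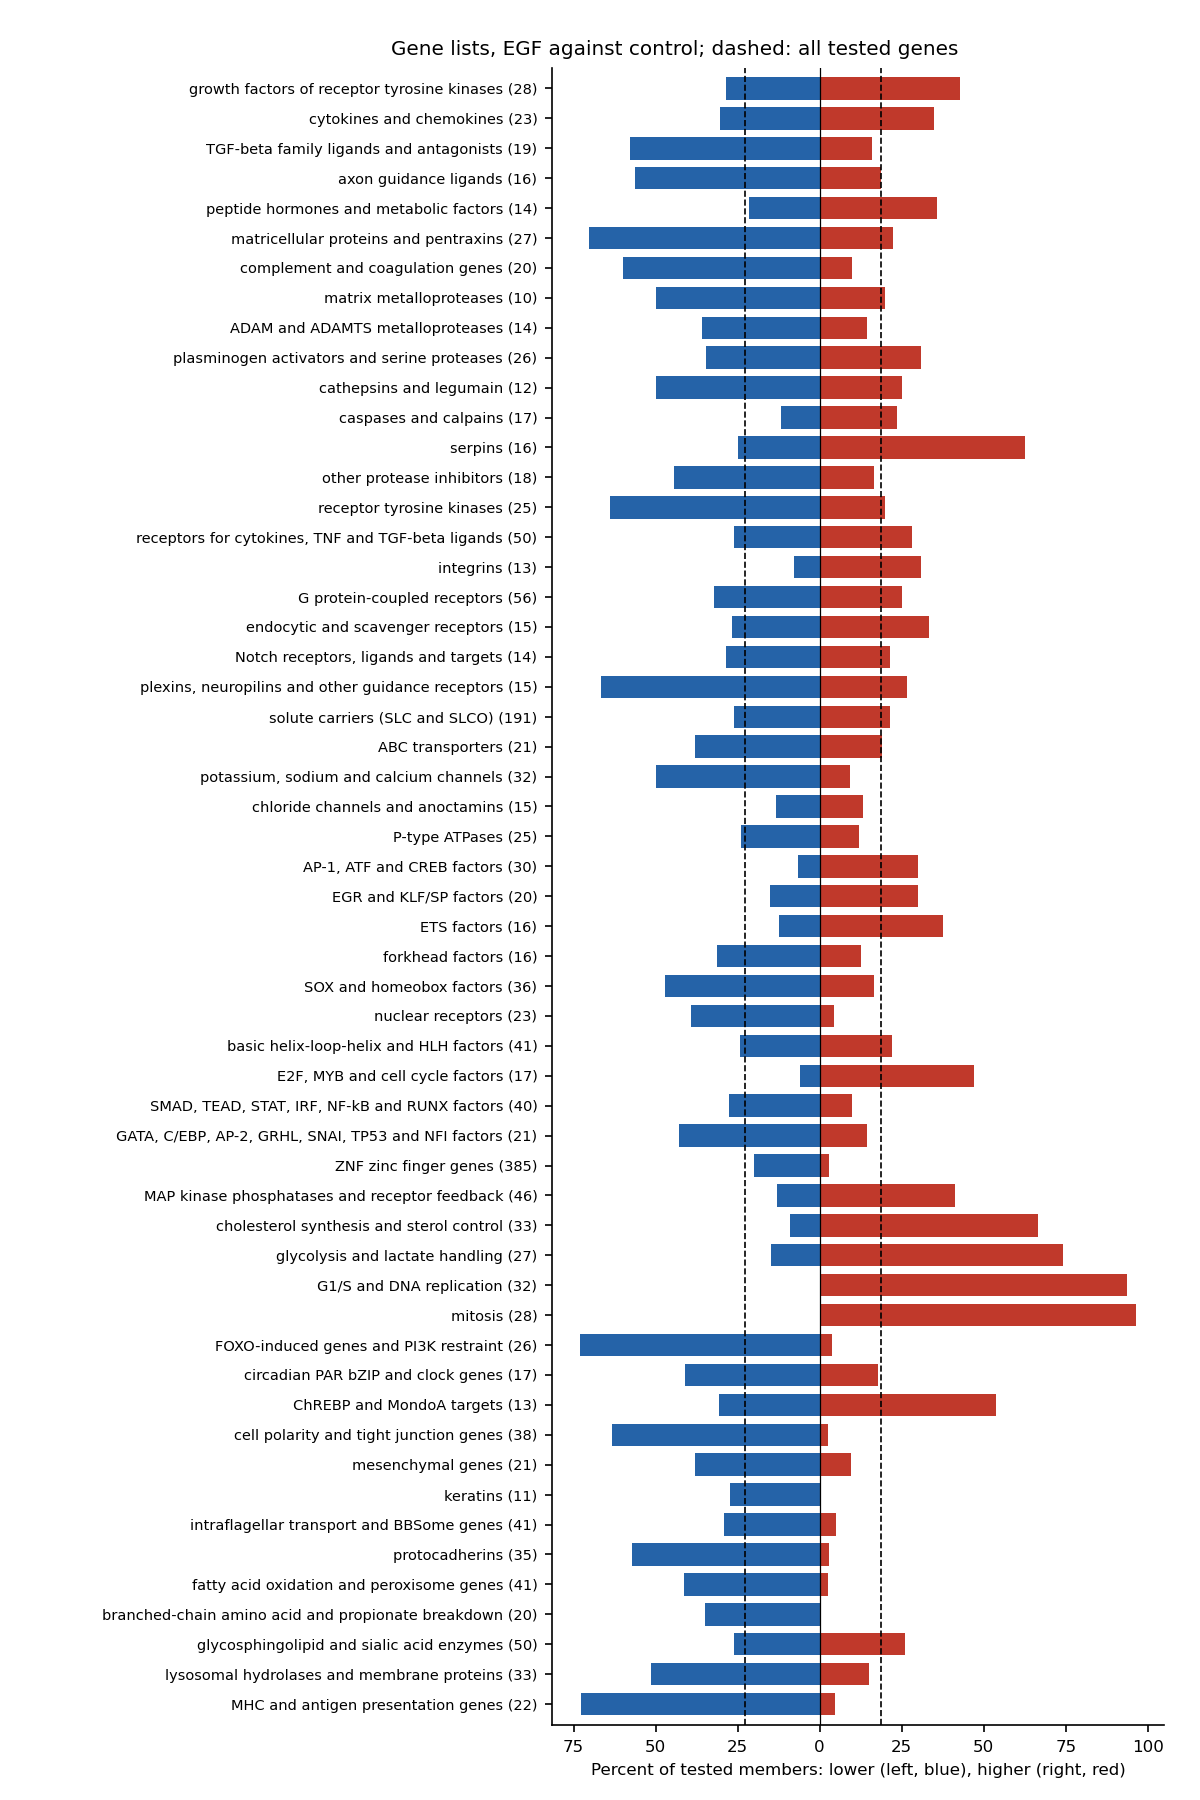
For each list with at least 10 tested members (number in brackets), bars show the percent that rose (right) and fell (left) with EGF, and dashed lines mark the 18.7% and 22.6% of all tested genes. G1/S, mitosis, glycolysis, cholesterol and serpin genes extend furthest to the right, and FOXO-induced, antigen presentation and matricellular genes furthest to the left.

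Knockdown of the receptor was set beside the ligand response as a comparison that shares no library with it. The EGFR level with siNC was 49.6 ± 0.218 FPKM, and after siEGFR it stood at 29.1 ± 0.666 FPKM (SD, n = 3, log2 change -0.75 ± 0.03, siEGFR minus siNC). The control libraries of the EGF comparison, at 28.0, 22.3 and 22.8 FPKM, were below both means. The siEGFR cells thus held less EGFR transcript than siNC cells, but not less than these controls. Over the same 13485 genes 1641 were higher (12.2%) and 1406 lower (10.4%) in siEGFR, but 267 and 387 when all 15 libraries shared an estimate of spread. Without siEGFR 2, siEGFR 3 or siNC 1 these were 878 and 854, 949 and 920, and 972 and 926. Of the 361 genes at least 2-fold higher with EGF, 78 were lower (21.6%) and 87 higher (24.1%) in siEGFR, and of the 332 at least 2-fold lower, 67 were higher (20.2%) and 43 lower (12.95%). Among the 25 largest increases 12 were lower and 4 higher in siEGFR.

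A subset of the ligand-induced genes stood lower after the knockdown, and others stood higher. Of 33 tested cholesterol genes 14 were lower and 0 higher in siEGFR. Of 28 tested mitosis genes, of which 27 rose with EGF, 13 were higher and 0 lower. Over all tested genes 12.2% were higher and 10.4% lower. AREG changed by -1.18 ± 0.06 in siEGFR (log2 scale, siEGFR minus siNC), from 13.3 ± 0.198 to 5.33 ± 0.516 FPKM, DUSP6 by -0.98 ± 0.05, ANGPTL4 by -0.88 ± 0.05 and SERPINB4 by -1.16 ± 0.08. HMGCS1 and SCD, of lipid synthesis, changed by -0.66 ± 0.03 and -0.66 ± 0.03 there. TFPI2, SERPINB2 and ITGA2 were lower as well (-1.05 ± 0.04, -0.83 ± 0.04 and -0.62 ± 0.04). Other strongly induced genes were not lower in siEGFR: FOSL1 and CA9, a carbonic anhydrase of hypoxic cells, were higher (0.41 ± 0.04 and 0.44 ± 0.04), and ACAT2 and SQLE were not called (0.05 ± 0.06 and 0.05 ± 0.05). Of the genes that fell with EGF, AXL, MATN2 and KLK5 were higher in siEGFR (0.73 ± 0.03, 0.74 ± 0.03 and 0.85 ± 0.09). CCN5 was called higher (0.16 ± 0.04) but not when all 15 libraries shared an estimate of spread (limma, adjusted p = 0.607), MLXIPL was not called (-0.06 ± 0.06), and AQP3 and CDH1, which fell with EGF, were lower in siEGFR too (-0.45 ± 0.05 and -0.62 ± 0.03). The siNC cells did not share the control level in all these genes. Mean levels in control, EGF and siNC were 11.8, 1.27 and 1.3965 FPKM for MLXIPL and 113, 25.1 and 21.7 FPKM for AQP3. They were 51.8, 8.16 and 8.88 FPKM for CCN5 and 6.54, 30.1 and 59.6 FPKM for FOSL1. In siNC, AXL (12.6, 4.91 and 17.2 FPKM) and HMGCS1 (17.3, 91.96 and 15.4 FPKM) stood nearer to control. So did SCD (103, 369 and 92.1 FPKM). For ANGPTL4, mean levels in control, EGF, siNC and siEGFR were 2.99, 25.1, 14.6 and 7.47 FPKM. For SERPINB4 they were 1.36, 10.6, 10.1 and 4.0047 FPKM, and for DUSP6 2.16, 13.5, 9.04 and 4.07 FPKM. For AREG they were 4.32, 23.1, 13.3 and 5.33 FPKM. The siEGFR means of ANGPTL4, SERPINB4, DUSP6 and AREG were thus above their control means, as were those of TFPI2, SERPINB2 and ITGA2. What this baseline does to the siEGFR changes was not tested.

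**Figure D5:**
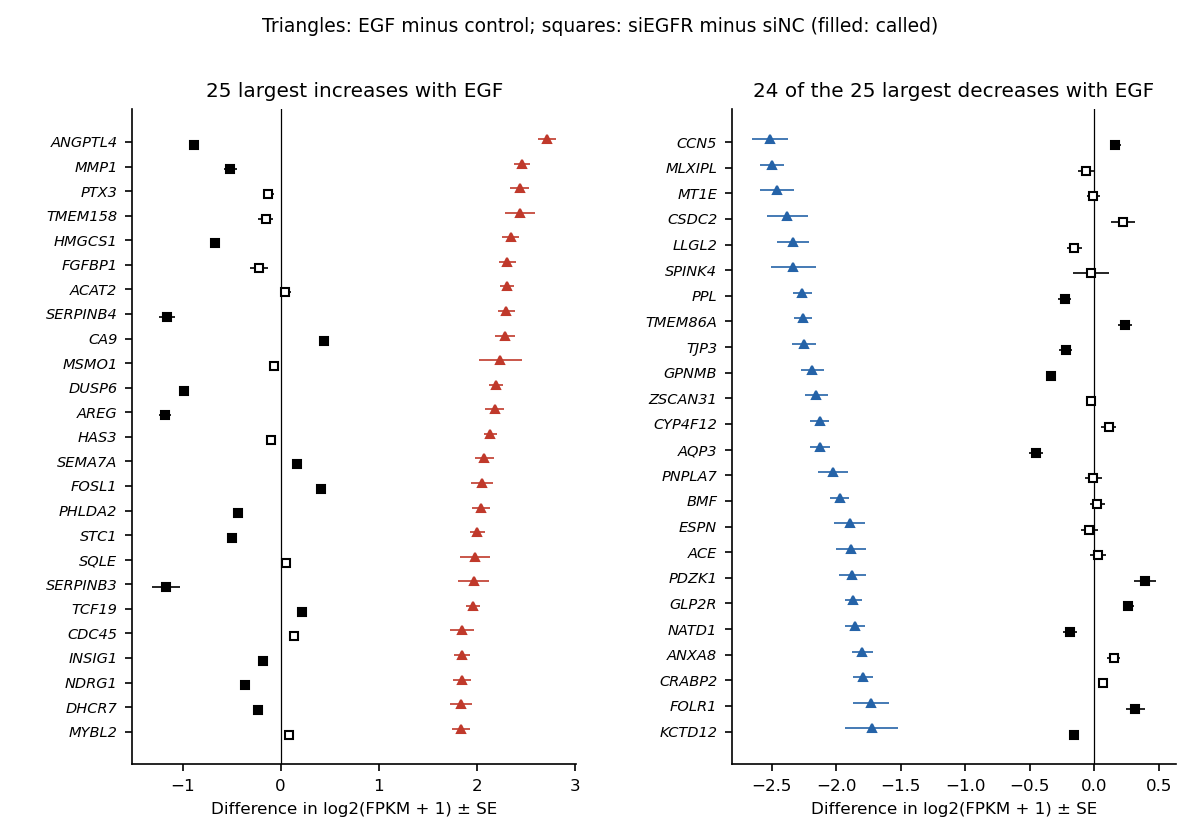
Differences in log2(FPKM + 1) ± SE for the 25 largest increases (left) and 24 of the 25 largest decreases (right) with EGF: triangles are EGF minus control, which chose the genes, and squares are siEGFR minus siNC, filled where called. In siEGFR 12 of the 25 increases are lower and 4 higher, and of the 24 decreases shown 5 are higher and 6 lower.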

How the data were processed

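RNA of NCI-H1975 cells was sequenced in 15 libraries, of which the 6 of the control and EGF groups, and the 6 of siNC and siEGFR, were compared. The authors deposited FPKM values for 61248 loci in a single table. HISAT2, featureCounts, DESeq2 and the build hg19 appear in the submitters' processing notes, which give no roles. No column belonged to another sample. Since 99.99% of positive values were whole reads within 0.01 read, read totals were recovered from the FPKM steps.

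A locus entered the fit when 3 or more of the 6 libraries reached 1 FPKM, log2(FPKM + 1) was taken, and each comparison was fitted by limma 3.58.1 (R 4.3.3, data.table version 1.17.8) with an intensity trend and robust moderation on its own 6 libraries. Calls had a Benjamini-Hochberg adjusted p under 0.05 over all 13485 loci, two-sided. Tables and plots used Python 3.11.15, numpy 2.4.6, pandas 2.3.3 and matplotlib 3.10.9. In data simulated for EGF against control (13485 genes, 200 changed), 31.3% of 1.5-fold, 70.1% of 2-fold and 83.3% of 4-fold changes were recovered, and 5 of 128 calls were unchanged genes. GC content and length came from GENCODE 29 transcripts for 96.8% of tested genes.

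The members, the 64 gene lists and the markers were chosen with earlier results of these data known, and a pattern in the list of other protease inhibitors was corrected after the results were seen because it caught an unrelated gene. Named genes were 6 markers, the 25 largest increases and decreases, and up to 4 each way per list. The largest changes needed a group mean reaching 5 FPKM on the higher side and no clone, antisense, pseudogene or readthrough name. List members needed a group mean of at least 2 FPKM on the higher side. Replicates had to be apart for the largest changes and for the list members. NRG1, HBEGF, EREG, TGFA, BTC, EFNB2, CCN1, THBS1, EGFR, ERBB2, IGF1R, INSR, SLC2A1, SLC2A3, SLC7A5, ERRFI1, CDH3, CLDN1, CLDN2, TJP1, PARD6B, PER3 and the noncoding genes were added after their values were seen. Alternatives were another pseudocount, 3 other filters, TPM and median-ratio scaling, more libraries in the fit, another variance model, stricter thresholds, a replicate block, voom on recovered reads, removal of GC and length trends (splines with 4 degrees of freedom) and each library left out. Values of some genes are not reported here.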

Additional observations from a re-analysis of the deposited data

How the results depend on the processing

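Of the counts over all genes (2516 higher, 3051 lower), those under 20 alternatives stayed within 1.5 times except as follows. A stricter adjusted p of 0.01 in limma left 1512 and 1826, a 2-fold minimum 361 and 332, and a filter of 5 FPKM 1826 and 1517, so that 54.6% of calls were higher, against 45.2% at the 1 FPKM filter. Leaving out each library gave 1622 to 3065 higher and 1999 to 3179 lower genes, the lowest without EGF 3. In siEGFR against siNC (1641 higher, 1406 lower) a spread shared by all 15 libraries left 267 and 387, and leaving out each library gave 878 to 1417 and 854 to 1281. Median-ratio scaling called 2785 genes higher and 2777 lower, or 50.1% of calls higher. The replicate block called 3751 higher and 4309 lower genes in EGF against control, and 1436 and 1308 in siEGFR against siNC, and it moved 28 list counts by over 1.5 times and left 100 within that. Same-numbered control and EGF libraries correlated in their deviations at 0.62 and 0.66 for numbers 1 and 2 and at -0.15 for number 3. Across numbers the values ran from -0.74 (control 1 with EGF 2) to 0.38 (control 1 with EGF 3). Whether same-numbered libraries share more than a number was not tested, and the labels do not say. Voom on recovered reads called 2568 and 3096 genes and shared 97.5% of the calls. Of 385 genes named by the rule none changed direction, and 49 lost the call under at least 1 of 18 alternatives. The causes of these differences were not tested. With 4 residual degrees of freedom, changes under 2-fold were often missed in the simulated data, so a gene not called may still differ.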

Other observations

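Noncoding genes, chosen here after their values were seen, held some of the largest changes. LINC00973 was at 3.25, 3.44 and 3.23 FPKM in control and 17.5, 22.7 and 20.04 FPKM with EGF (log2 change 2.28 ± 0.10), and MIR210HG, the host transcript of the hypoxia-induced miR-210, at 1.20, 1.38 and 1.32 and 7.96, 10.1 and 8.24 FPKM (2.08 ± 0.10). MANCR rose from 0.754, 0.520 and 0.765 to 4.67, 4.33 and 4.45 FPKM (log2 change 1.71 ± 0.09). By log2 change, the largest decrease of all tested genes was that of the pseudogene IGFL1P1 (-2.90 ± 0.15), which the name rule kept out of the ranking. IGFL1P1 was at 20.8, 28.5 and 28.1 FPKM in control and 2.15, 2.58 and 3.01 FPKM with EGF. The antisense gene IGFL2-AS1 fell from 10.8, 8.10 and 9.85 to 1.31, 1.27 and 1.20 FPKM (log2 change -2.22 ± 0.11). Of 457 tested antisense genes 36.3% fell and of 347 tested lincRNAs 35.4%, against 21.4% of protein-coding genes. Reads of a gene and its antisense partner cannot be told apart without a stated strand.

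Clock genes and amino acid breakdown also changed. Of 17 tested clock genes 7 fell and 3 rose, with DBP, a clock output factor, at 5.04, 5.18 and 5.30 FPKM in control and 1.97, 1.82 and 1.53 FPKM with EGF (log2 change -1.16 ± 0.09), and CRY2 and PER3 lower by 0.75 and 0.65. Of 20 tested genes of branched-chain amino acid and propionate breakdown 7 fell, or 13 once GC and length trends were removed. ALDH6A1, a dehydrogenase of valine breakdown, fell from 8.71, 6.21 and 6.89 to 2.56, 2.08 and 2.47 FPKM (log2 change -1.29 ± 0.13). Among 35 tested protocadherins 20 fell, 12 without EGF 2 and 10 without EGF 3, and these genes share exons, so their reads may not be their own.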
